A study of Mus musculus with 7 samples.

Results

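B4galt1 to B4galt7 encode the beta-1,4-galactosyltransferases, enzymes of the Golgi that move galactose from UDP-galactose onto other sugars. All 7 genes were found by symbol, 1 row each, among the 32285 genes counted, and their UMI counts (unique molecular identifiers, 1 per captured transcript) were followed across 5 states of blood progenitors. The cells were mouse bone marrow LSK cells, which lack lineage markers and carry Sca-1 and cKit, and they were profiled by single-cell RNA sequencing of 3′ tags. The study's title concerns glycosylation, megakaryocyte fate, Wnt and Muc13. Of the 7 libraries, 3 were labelled B4galt1 KO, with the genotype 129S1/C57Bl/6, B4-/- (a full knockout in the design text), and 4 were labelled WT, with the genotype 129S1/C57Bl/6. No treatment or age is given for either group, and nothing says whether a library came from 1 mouse or from several. The p-values between labels therefore measure the spread between libraries, which may in part be technical. Those between states were taken within libraries. They measure the spread left once each library's own level is removed, pooled over the states.

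B4galt1, B4galt2, B4galt3 and B4galt4 join galactose to N-acetylglucosamine and so make N-acetyllactosamine (LacNAc), the unit that is extended and then capped with sialic acid or fucose on glycoproteins. B4galt5 and B4galt6 are known for making lactosylceramide, from which most glycosphingolipids are built. B4galt7 adds the first galactose of the linker that holds glycosaminoglycan chains on proteoglycans. In marrow, B4galt1 is known for its part in platelet production and in the selectin ligands of leukocytes.

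Per the GENCODE vM21 annotation of GRCm38, B4galt1 (ENSMUSG00000028413) lies on chromosome 4 from 40804602 to 40854005 on the minus strand, and B4galt2 (ENSMUSG00000028541) on the same chromosome and strand from 117869260 to 117883487. B4galt3 (ENSMUSG00000052423) lies on chromosome 1 from 171270328 to 171276896, B4galt4 (ENSMUSG00000022793) on chromosome 16 from 38742264 to 38769049 and B4galt7 (ENSMUSG00000021504) on chromosome 13 from 55599896 to 55610443, all on the plus strand. B4galt5 (ENSMUSG00000017929) lies on chromosome 2 from 167298444 to 167349183 on the minus strand, and B4galt6 is placed with its results. B4galt3 overlaps Ppox on the other strand, B4galt7 overlaps the antisense gene Gm15911, and B4galt2 overlaps Slc6a9 on the other strand and Ccdc24 on its own. Whether strand was used in counting is not given in the sources used here, so reads from these pairs may not be told apart.

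The sequences before the start sites of B4galt1, the gene the KO label names, and of B4galt5 and B4galt7, which differed in opposite directions between stem-gated and granulocyte-monocyte-gated cells, are shown from RefSeq (GRCm38.p6), 5′ to 3′ along the gene. Capitals mark GC boxes, the letters GGGCGG on either strand, with overlapping matches counted separately. Bases that GENCODE places inside the transcript were left out, which took 21 bases from B4galt1 and 5 from B4galt5. The windows are chr4:40854006-40854234 and chr2:167349184-167349428 on the minus strand, and chr13:55599646-55599895 on the plus strand.
B4galt1: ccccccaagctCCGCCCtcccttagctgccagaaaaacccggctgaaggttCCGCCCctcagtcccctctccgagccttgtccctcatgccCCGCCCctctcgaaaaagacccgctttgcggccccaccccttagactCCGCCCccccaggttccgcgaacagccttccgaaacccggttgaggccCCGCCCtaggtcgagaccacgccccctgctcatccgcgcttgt
B4galt5: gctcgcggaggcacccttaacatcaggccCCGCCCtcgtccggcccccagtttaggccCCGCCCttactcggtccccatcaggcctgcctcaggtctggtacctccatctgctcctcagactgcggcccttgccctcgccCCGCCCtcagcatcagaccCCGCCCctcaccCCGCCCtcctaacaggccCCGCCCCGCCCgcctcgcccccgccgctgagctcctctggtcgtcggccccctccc
B4galt7: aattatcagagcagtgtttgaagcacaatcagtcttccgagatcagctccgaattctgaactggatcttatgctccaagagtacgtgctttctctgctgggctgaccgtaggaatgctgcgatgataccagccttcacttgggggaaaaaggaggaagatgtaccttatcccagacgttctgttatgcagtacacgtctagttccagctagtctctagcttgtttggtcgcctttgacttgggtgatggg
Over the full 250 bases before the RefSeq start, B4galt5 held 7 GC boxes, B4galt1 held 5, B4galt2 held 2, B4galt3 and B4galt4 held 1 each and B4galt7 held 0. No window of B4galt6 was searched. A GC box occurred in 32.7% of the 32851 RefSeq windows of that length. Guanine and cytosine made up 73.2% of the window of B4galt5, 66.4% of that of B4galt1 and 48.0% of that of B4galt7, against a median of 52.4% over all windows. The B4galt7 window held 1 GATA match (TGATAA or AGATAA, found in 16.6% of windows) and 1 PU.1 core (GAGGAA, found in 23.3%), both strands searched. These matches describe letters and are not binding sites.

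The libraries held 14970791 to 89747946 UMIs over 36465 barcodes, and 24430 cells were kept (1172 to 8862 per library, median depth 8046 to 11083.5 UMIs). The barcodes fell into 2 lists of sequences: KO replicate 3 and WT replicate 4 used list B, and the other 5 libraries list A. In list B, 98.3% and 96.2% of barcodes passed the cell filter, against 32.4% to 49.9% in list A, and these 2 libraries shared 88 barcodes with each other, where any other pair shared 0 to 7. The labels name 1 kit for all, so each comparison of labels carried the list as a covariate. Markers of the sort were present in every state (Kit had a mean CPM of 132 to 312 and Ly6a, which encodes Sca-1, of 9.31 to 63.7), with Ly6a lowest in the GM gate.

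A cell was placed in a state by its raw marker UMIs. The stem gate asked for at least 3 of 6 stem cell genes (Hlf, Procr, Mecom, Mllt3, Fgd5, Trpc6), the Mk gate for at least 3 UMIs in at least 2 platelet genes (among them Pf4 and Itga2b), and the GM gate, for granulocytes and monocytes, for at least 10 UMIs of the granule genes Mpo, Elane, Prtn3 and Ctsg. The Dntt gate, for early lymphoid cells, asked for at least 2 UMIs of Dntt, and the Flt3 gate for at least 2 of Flt3 and 0 of Dntt. This gave 5565 stem, 375 Mk, 2168 GM, 1350 Flt3 and 1989 Dntt cells, while 10262 cells met several gates and 2721 none, and those were kept apart. Genes that no gate used were highest in their own gate for 7 of 7 lymphoid markers in Dntt cells, 6 of 7 in GM cells, 4 of 7 in Mk cells and 4 of 6 in stem cells, but for only 1 of 5 in Flt3 cells. The Flt3 gate is therefore named here by its rule alone. Only KO replicate 3 (246 cells) and WT replicate 4 (107 cells) held at least 20 Mk cells, so every Mk value rests on the 2 libraries of list B.

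Counts were summed per library and state, and levels are CPM (UMIs scaled to a common library total, here with edgeR's TMM factors). A 3′ tag count gives no level per length, so levels are compared between states and not between genes. Over all kept cells the 7 genes had 11248 (B4galt1), 73 (B4galt2), 4378 (B4galt3), 4361 (B4galt4), 4964 (B4galt5), 7703 (B4galt6) and 3378 (B4galt7) UMIs. B4galt2 thus had 2 to 16 UMIs per library and 0 in 16 of 30 sums of a library and state. It did not pass the filter on low counts in any fit by state, so 6 of the 7 genes were tested there.

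B4galt1, the gene named as knocked out, did not separate the labels. In all kept cells its CPM was 53.2, 53.1 and 31.8 in KO replicates 1 to 3 and 54.1, 60.8, 52.1 and 39.5 in WT replicates 1 to 4. The groups overlapped, and the lowest library of each label was the one of list B. The log2 fold change (KO minus WT label) was -0.14 (SE 0.12, adjusted p 0.537 by edgeR), in a comparison that called 162 of 14608 genes (1.11%) at an adjusted p below 0.05. The part of the gene that was deleted is not given, and a 3′ tag outside it does not check the label, so groups are named by their labels throughout.

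Within the states B4galt1 did not pass the test either. In stem cells it was 40.8, 49.9 and 25.9 CPM under the KO label and 47.9, 65.3, 51.4 and 37.7 under the WT label. The log2 fold change was -0.36 (SE 0.16, unadjusted p 0.0411, adjusted p 1.00 by edgeR), where 0.0584% of 11995 genes were called. In GM cells the KO label gave 56.9, 56.0 and 32.2 CPM and the WT label 50.4, 69.2, 65.7 and 45.5, a log2 fold change of -0.26 (SE 0.18, adjusted p 1.00 by edgeR), and 0% of 11335 genes were called (242 at an unadjusted p below 0.05, 2 by DESeq2). The ranges of the labels overlapped in both states. In Flt3 cells the change was -0.42 (SE 0.23) and in Dntt cells -0.05 (SE 0.20), again with an edgeR adjusted p of 1.00, against 0.0794% of 8821 and 0.157% of 9534 genes called. The Dntt value was the only one of these to change sign with the processing: it was 0.22 with the 5 libraries of list A, where KO replicate 1 stood at 76.8 CPM. In Mk cells there was 1 library per label, 33.6 CPM (KO) and 41.3 CPM (WT), and so no test.

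**Figure D1:**
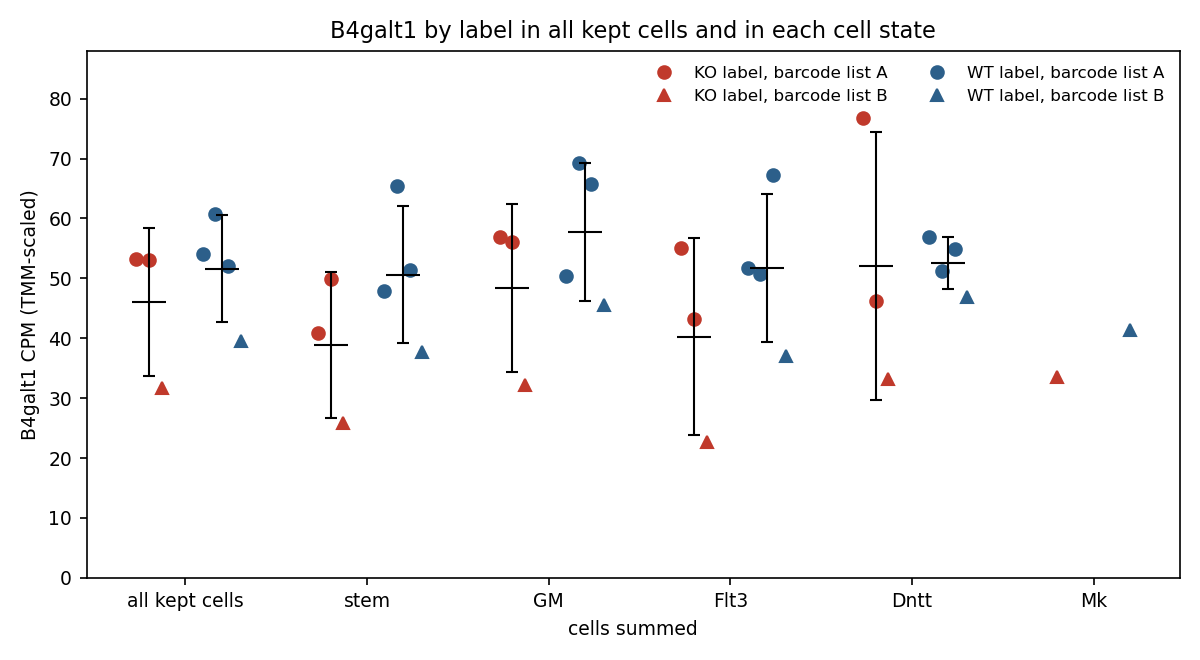
B4galt1 CPM (y axis) in all kept cells and in each cell state (x axis), 1 point per library, red for the KO label and blue for the WT label, circles for barcode list A and triangles for list B. Bars show the mean and SD of each label (n = 3 and n = 4). The labels overlap in all kept cells, stem, GM, Flt3 and Dntt cells, and within each label the triangle is the lowest point of these groups.

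No other member of the family passed the test between labels. Over all kept cells the 7 members had edgeR adjusted p-values from 0.191 (B4galt4) to 0.737 (B4galt2), and in the stem, GM, Flt3 and Dntt gates every member tested had an adjusted p of 1.00 (B4galt7 was too low to be tested in Flt3 cells). B4galt2, the remaining LacNAc enzyme with few counts, had 4 UMIs in the GM cells of the KO label, 0.129 CPM of the pooled UMIs (exact Poisson 95% interval 0.0352 to 0.331, counting error only), and 4 in those of the WT label, 0.563 CPM (0.153 to 1.44). Whether the label difference itself depended on the state was tested with an interaction term over stem, Mk, GM, Flt3 and Dntt. This called 0 of 12763 genes (0%, with 271 at an unadjusted p below 0.05), and the 6 members had edgeR adjusted p-values of 1.00. A missed threshold does not show equal label differences: for B4galt6 the SE of the interaction term (KO minus WT label, GM minus stem) was 0.60 on the log2 scale. The Mk term rests on 1 library per label, so its error is taken from the other states (SE 1.86 for B4galt6).

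Across states the family did not move as one. Against the stem gate, 4 of the 6 members tested differed in GM cells, 2 in Mk cells, 2 in Dntt cells and 0 in Flt3 cells. These counts stand against 66.0%, 28.1%, 37.0% and 9.08% of the 12763 genes tested in the same contrasts, so the share of members called was close to that of all genes in each. The genes are therefore described one by one. The contrasts were taken within libraries, and their medians over all genes were -0.08 (GM), -0.09 (Mk), -0.02 (Flt3) and -0.00 (Dntt) on the log2 scale.

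**Figure D2:**
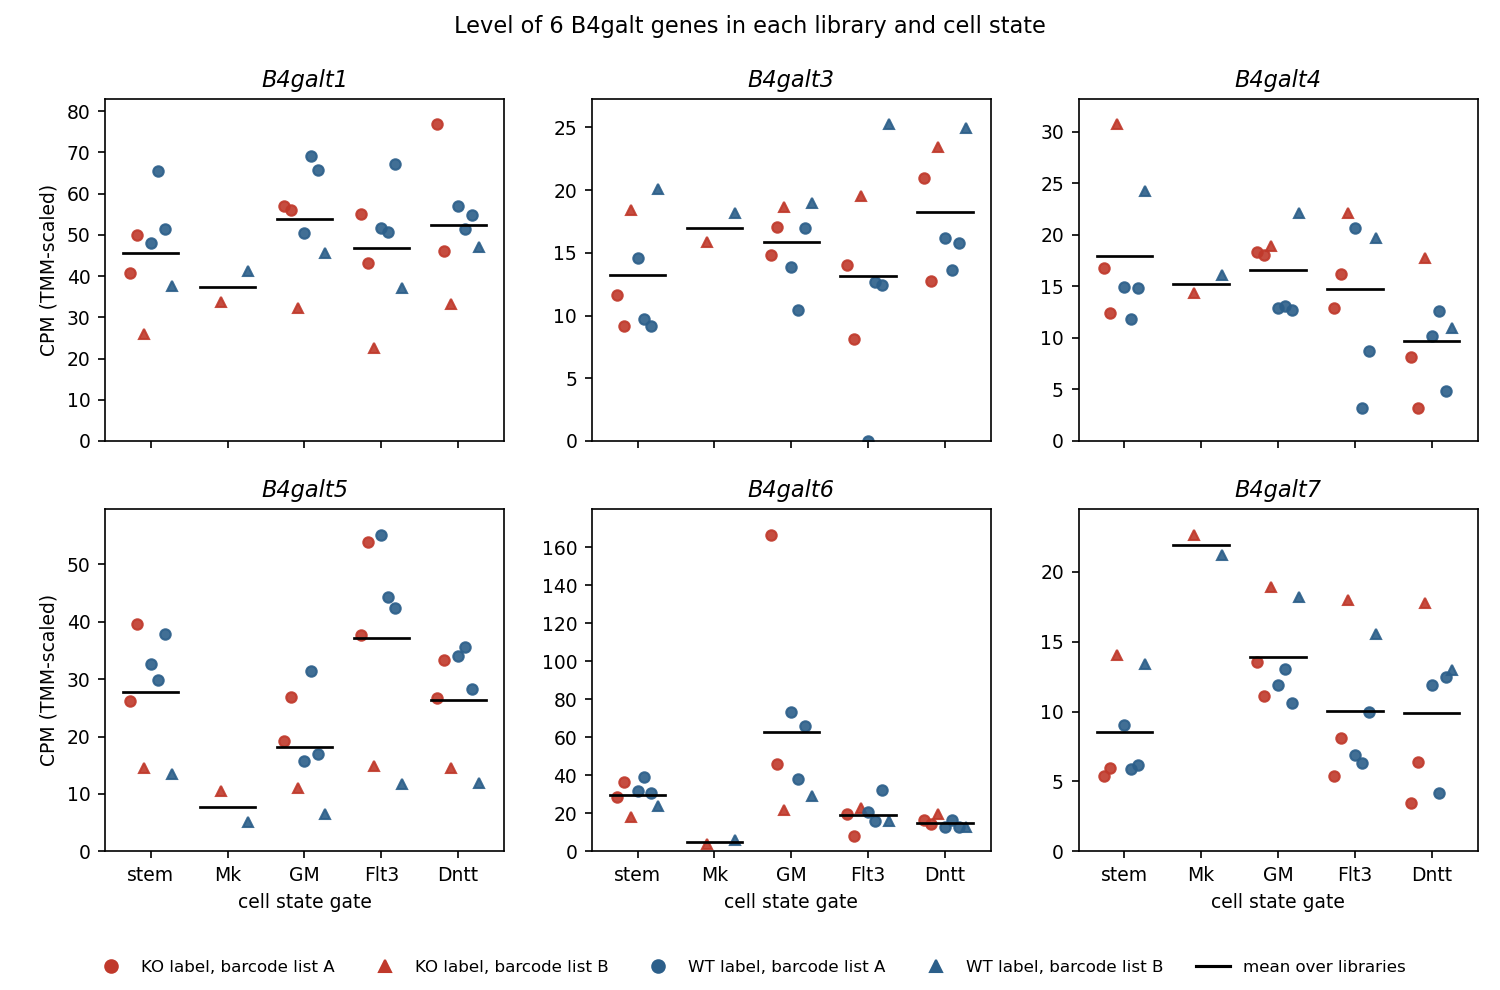
CPM of B4galt1 and B4galt3 to B4galt7 (y axis, each panel from 0) in the 5 cell states (x axis), 1 point per library, with colours for the label, symbols for the barcode list and a black line for the mean over libraries, which for Mk holds only the 2 libraries of list B. B4galt6 is highest in GM cells and lowest in Mk cells, and B4galt5 is lowest in Mk and GM cells. The barcode lists do not overlap in the stem, GM, Flt3 and Dntt gates for B4galt3, B4galt5 and B4galt7. For B4galt1, B4galt4 and B4galt6 they do not overlap in at least the stem and GM gates.

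Among the enzymes of LacNAc, B4galt1 was a little higher in GM than in stem cells. Its mean was 53.7 ± 12.5 CPM (SD, n = 7) in GM and 45.6 ± 12.4 CPM (SD, n = 7) in stem cells. The GM level was the higher one in 7 of 7 libraries, with a log2 fold change of 0.25 (SE 0.10, adjusted p 0.0259 by edgeR). Dntt cells stood at 52.3 ± 13.3 CPM (SD, n = 7) and Flt3 cells at 46.8 ± 14.2 CPM (SD, n = 7). Neither differed from stem cells by the test (0.24, adjusted p 0.0658, and 0.03, adjusted p 0.963), nor did Mk cells (0.26, adjusted p 0.291). The GM call was the least firm of the 4: without WT replicate 4 the change was 0.26 with an edgeR adjusted p of 0.0557, and it was also lost in the 5 libraries of list A alone.

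B4galt3 was highest in Dntt cells. There its CPM was 20.9, 12.7 and 23.4 under the KO label and 16.1, 13.6, 15.7 and 24.9 under the WT label. In stem cells the same libraries gave 11.7, 9.18 and 18.4, and 14.6, 9.73, 9.15 and 20.1. Each of the 7 libraries was higher in Dntt than in stem cells, with a log2 fold change of 0.45 (SE 0.16, adjusted p 0.0205 by edgeR). GM cells (15.8 ± 3.01 CPM, SD, n = 7), Flt3 cells (13.1 ± 8.03, SD, n = 7) and Mk cells (15.8 and 18.1 in the 2 libraries) did not differ from stem cells by the test. The level within a state also followed the barcode list, since the 2 libraries of list B had the highest B4galt3 in each of the stem, GM, Flt3 and Dntt gates. In the libraries of list A alone the Dntt difference was 0.54 with an adjusted p of 0.0844.

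B4galt4 was lower in Dntt cells. Its CPM there was 8.14, 3.18 and 17.7 under the KO label and 10.2, 12.6, 4.89 and 11 under the WT label. Stem cells of the same libraries stood at 16.8, 12.4 and 30.7, and at 14.9, 11.8, 14.8 and 24.2. Dntt was the lower state in 6 of 7 libraries, WT replicate 2 being the exception, and B4galt4 fell by 0.90 on the log2 scale (SE 0.18, adjusted p 8.68e-05 by edgeR). This call held in 18 of 18 alternatives. In stem cells and in GM cells B4galt4 was highest in KO replicate 3 and WT replicate 4, the libraries of list B. The gene was also lower in Mk cells, at 14.3 and 16.1 CPM against 30.7 and 24.2 in the stem cells of the same 2 libraries (log2 fold change -0.78, SE 0.28, adjusted p 0.0311 by edgeR), a call that held in 9 of 17 alternatives. Without KO replicate 3 the Mk difference was -0.50 (adjusted p 0.535), and without WT replicate 4 or WT replicate 3 the adjusted p was 0.0889 or 0.0591. In GM cells (16.6 ± 3.70 CPM, SD, n = 7) and Flt3 cells (14.8 ± 6.94 CPM, SD, n = 7) B4galt4 did not differ from stem cells (17.9 ± 6.97 CPM, SD, n = 7) by the test.

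The pair of lactosylceramide enzymes went in opposite directions in GM cells. B4galt5 was lower there: 19.2, 26.9 and 11.1 CPM under the KO label and 15.8, 31.3, 17.0 and 6.50 under the WT label, against 26.1, 39.5 and 14.5, and 32.6, 29.9, 37.9 and 13.5 in stem cells. GM was lower in 6 of 7 libraries, all but WT replicate 2, and the gene fell by 0.59 on the log2 scale (SE 0.13, adjusted p 9.07e-05 by edgeR). The level within a state also followed the barcode list, since KO replicate 3 and WT replicate 4 had the lowest B4galt5 in each of the stem, GM, Flt3 and Dntt gates. B4galt5 was highest in Flt3 cells (37.2 ± 17.4 CPM, SD, n = 7), where it did not differ from stem cells (27.7 ± 10.4 CPM, SD, n = 7) by the test (0.27, adjusted p 0.310). It stood at 10.6 and 5.04 CPM in Mk cells, against 14.5 and 13.5 in the stem cells of those libraries (-0.67, SE 0.27, adjusted p 0.0626). Counted in cells thinned to 3000 UMIs with looser gates, the GM difference was -0.33 (adjusted p 0.120).

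Of the 6 members tested, B4galt6 had the widest range of means across states, from 5.10 CPM in Mk cells (the 2 libraries of list B alone) to 62.9 CPM in GM cells. B4galt6 (ENSMUSG00000056124) lies on chromosome 18 from 20684599 to 20746404 on the minus strand. In GM cells it stood at 167, 46.1 and 21.7 CPM under the KO label and at 73.2, 37.9, 65.7 and 29.4 under the WT label. Stem cells gave 28.4, 36.3 and 18.0, and 31.9, 38.9, 30.7 and 24.1. GM was higher in 6 of 7 libraries, all but WT replicate 2, and KO replicate 1 stood far above the others. The log2 fold change was 0.93 (SE 0.28, adjusted p 0.00664 by edgeR) and 0.48 (adjusted p 0.0384) without KO replicate 1. It was 0.21 (adjusted p 0.421) in the libraries of list B alone, and 0.15 (adjusted p 0.614) when cells of several gates were assigned by priority. In Dntt cells B4galt6 lay between 12.7 and 19.6 CPM, lower than in stem cells in 6 of 7 libraries (log2 fold change -0.82, SE 0.33, adjusted p 0.0602 by edgeR), and in Flt3 cells between 8.09 and 32.4 CPM (-0.44, adjusted p 0.579).

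In Mk cells B4galt6 was near the floor of detection. KO replicate 3 had 11 UMIs (4.15 CPM) and WT replicate 4 had 6 UMIs (6.05 CPM), against 18.0 and 24.1 CPM in their stem cells. The log2 fold change was -2.09 (SE 0.78, adjusted p 0.0515 by edgeR), just outside the threshold, while DESeq2 gave -2.20 with an adjusted p of 0.00109. Against GM cells the difference passed (3.02, GM minus Mk, SE 0.75, adjusted p 0.00795 by edgeR), in a contrast that called 15.3% of genes.

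B4galt7, the linker enzyme, was higher in both GM and Mk cells. In GM cells it stood at 13.5, 11.1 and 18.9 CPM under the KO label and 11.9, 13.1, 10.6 and 18.2 under the WT label, and in stem cells at 5.36, 5.99 and 14.1, and 9.03, 5.91, 6.19 and 13.4. GM was higher in 7 of 7 libraries (log2 fold change 0.75, SE 0.16, adjusted p 8.25e-05 by edgeR). The libraries of list B were the highest in both states, and the rise was 0.40 (adjusted p 0.0256) within list B alone. Thinned to 3000 UMIs per cell with looser gates, it was 0.38 (adjusted p 0.14). Mk cells had 22.6 and 21.2 CPM against 14.1 and 13.4 in stem cells of the same libraries (0.78, SE 0.25, adjusted p 0.0156 by edgeR). This call held in 11 of 17 alternatives, over which the change lay between 0.33 and 0.91. It was lost without KO replicate 3 or WT replicate 4, either of which leaves the Mk cells of a single library. Looser gates, assignment by priority and thinned cells lost it as well. Flt3 cells (10.0 ± 4.87 CPM, SD, n = 7) and Dntt cells (9.88 ± 5.29 CPM, SD, n = 7) did not differ from stem cells (8.56 ± 3.72 CPM, SD, n = 7) by the test.

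**Figure D3:**
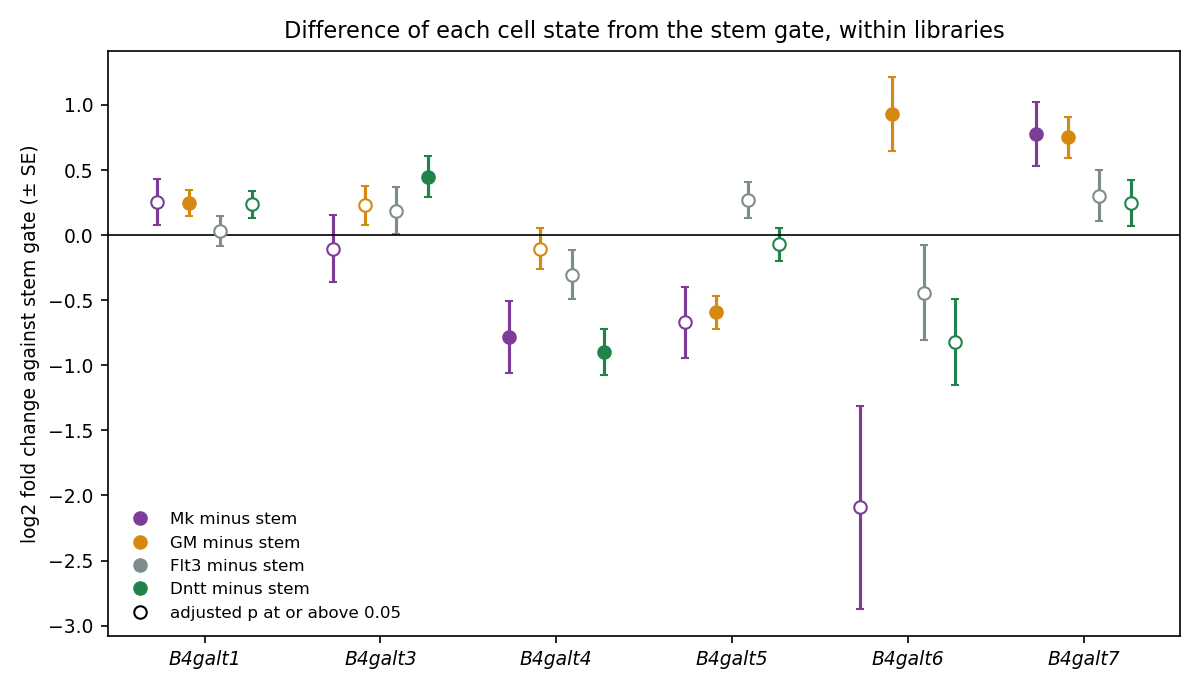
Log2 fold change of 6 B4galt genes against the stem gate (y axis) for Mk, GM, Flt3 and Dntt cells, as the estimate and its SE from the fit within libraries. Filled points passed an adjusted p of 0.05 and open points did not: 4 filled points belong to GM, 2 to Mk, 2 to Dntt and 0 to Flt3.

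The other pairs of states give the order of the levels. For B4galt6, GM cells stood above Flt3 cells (1.37, SE 0.36, adjusted p 0.00359 by edgeR) and above Dntt cells (1.75, SE 0.34, adjusted p 0.000236), while from stem to Flt3, Dntt and Mk cells, in that order of means, no state differed from the next by the test. For B4galt5, Flt3 cells stood above GM cells (-0.86 for GM minus Flt3, SE 0.15, adjusted p 1.25e-05) and above Mk cells (-0.94 for Mk minus Flt3, SE 0.28, adjusted p 0.0136), and Dntt cells above GM cells (-0.52 for GM minus Dntt, SE 0.14, adjusted p 0.00247). GM cells exceeded Dntt cells in B4galt4 (0.79, SE 0.19, adjusted p 0.000694 by edgeR) and in B4galt7 (0.51, SE 0.18, adjusted p 0.0194). No pair of states outside these and the stem contrasts was called for B4galt1, B4galt3, B4galt4 or B4galt7. Thus GM minus Flt3 called 2 members beside 52.7% of all genes, GM minus Dntt 4 beside 48.3%, GM minus Mk 1, Mk minus Flt3 1 beside 23.0%, Mk minus Dntt 0 beside 23.0% and Dntt minus Flt3 0 beside 12.6%.

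GM cells held more UMIs per cell than stem cells, with a median of 11905 to 24672 per library against 4945 to 8103. They also differed among libraries in the share of granule gene UMIs. The median share of a GM cell's UMIs taken by Mpo, Elane, Prtn3 and Ctsg was 1.38% in KO replicate 1 and between 0.187% and 0.633% in the other 6 libraries. KO replicate 1 was also the library with the highest B4galt6. A split of GM cells at a share of 1% was therefore made within the 5 libraries that kept at least 20 cells on each side. It was chosen after the values had been seen.

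B4galt6 was far higher in the cells with the larger granule share. Below and above 1% it stood at 16.4 and 195 CPM in KO replicate 1, 18.1 and 78.9 in KO replicate 2, 10.3 and 56.7 in KO replicate 3, 16.4 and 111 in WT replicate 1, and 8.0 and 71.6 in WT replicate 4. The groups did not overlap, and the rise was present in each of the 5 libraries, under both labels and in both barcode lists. The log2 fold change was 2.88 (SE 0.20, adjusted p 3.61e-07 by edgeR), and the split called 43.7% of 9949 genes. B4galt5 was lower on the same side, from 25.3 to 14.3 CPM in KO replicate 1, from 26.6 to 21.2 in KO replicate 2, from 10.7 to 6.03 in KO replicate 3, from 18.4 to 11.7 in WT replicate 1 and from 7.04 to 2.44 in WT replicate 4 (log2 fold change -0.72, SE 0.19, adjusted p 0.00448 by edgeR). The 2 lactosylceramide enzymes thus moved apart in the same directions as between stem and GM cells. B4galt7 (0.59, SE 0.20, adjusted p 0.0205) and B4galt4 (0.48, SE 0.16, adjusted p 0.0215) were higher with the larger share, while B4galt1 (0.28, adjusted p 0.0888) and B4galt3 (0.34, adjusted p 0.156) did not pass.

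Finer steps of the granule share showed the same for B4galt6. In KO replicate 1 the summed cells held 16.2 CPM below 0.5%, 20.1 from 0.5% to 1%, 85.3 from 1% to 2%, 248 from 2% to 4% and 347 above, over 170, 92, 189, 211 and 31 cells. KO replicate 3 went from 9.72 through 9.15 and 26.8 to 55.3 CPM over the first 4 steps. WT replicate 4 went from 6.11 to 20.4, dropped to 3.42 (1 UMI in 16 cells) and then reached 45.9 and 117 CPM. B4galt5 in KO replicate 1 stood at 26.1, 29.9, 22.7, 9.02 and 1.07 CPM over the same steps. In stem cells, before TMM scaling as here, B4galt6 was at 31.7, 40.3 and 16.4 CPM in KO replicates 1 to 3. It was at 35.4 and 21.4 CPM in those of WT replicates 1 and 4. GM cells below 0.5% stood lower in each of these libraries, at 16.2, 15.5, 9.72, 22.5 and 6.11 CPM in the same order. GM cells below 1% outnumbered those above in KO replicate 2 (205 and 94), KO replicate 3 (592 and 89), WT replicate 1 (35 and 24) and WT replicate 4 (279 and 85). In KO replicate 1 they did not (262 and 431).

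**Figure D4:**
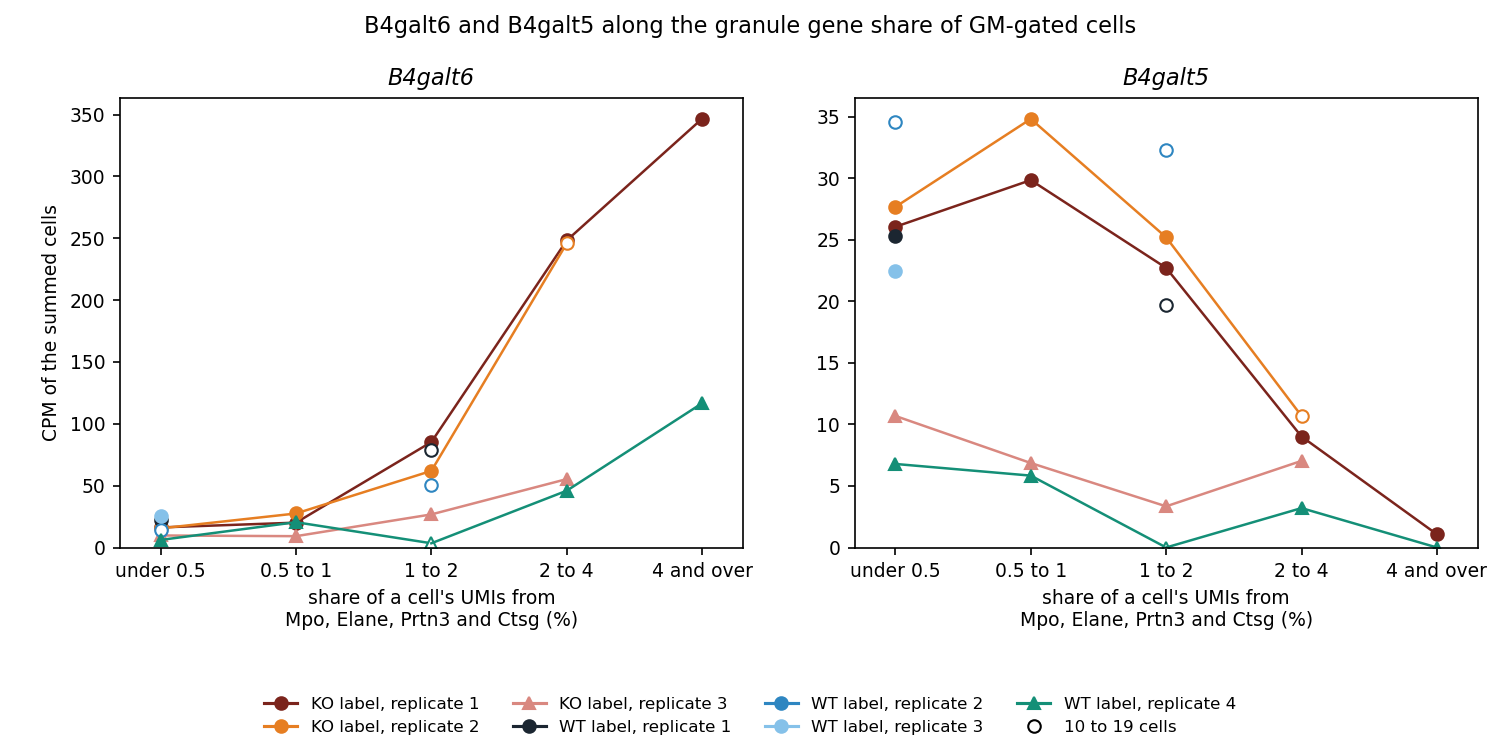
CPM of B4galt6 (left) and B4galt5 (right) in GM-gated cells summed by the share of each cell's UMIs from 4 granule genes (x axis, steps of unequal width), 1 line per library. Steps with under 10 cells are not drawn and open points hold 10 to 19 cells. B4galt6 reaches 347 CPM in KO replicate 1 and 117 CPM in WT replicate 4 at the top step, and B4galt5 falls to 1.07 CPM in KO replicate 1.

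Cells with the larger granule share held more UMIs (median 30974 against 14639 in KO replicate 1, and 16117 to 22867 against 10245 to 12118 in the other 4). Neutrophil markers (S100a8, S100a9, Ngp, Camp, Ltf) were detected, all 5 of 5, in GM cells of both labels, with a summed CPM of 43.8 to 4851 over KO and 42.5 to 37603 over WT libraries. On the 2 sides of the split they summed to 6171 and 4438 CPM in KO replicate 1, 5.17 and 2877 in KO replicate 2, 22.7 and 122 in KO replicate 3, 8252 and 8518 in WT replicate 1 and 10.0 and 1534 in WT replicate 4. Without cells holding 5 or more neutrophil UMIs the B4galt6 difference was 2.50, and over all 11 alternatives it lay between 2.50 and 3.09 and was called in each. The calls for B4galt5, B4galt4 and B4galt7 were less firm and held in 10, 6 and 7 of 11 alternatives. B4galt5 was lost without KO replicate 1 (-0.65, adjusted p 0.0627). Among the losses, B4galt4 missed without KO replicate 1 or KO replicate 3 (adjusted p 0.134 and 0.0570), and B4galt7 without KO replicate 3 or WT replicate 4 (adjusted p 0.0599 and 0.0839). Over all alternatives, by edgeR or DESeq2, the highest adjusted p was 0.345 for B4galt4 and 0.277 for B4galt7.

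Markers of other lineages were found in the gates as well. The 5 neutrophil genes summed to 9.29 to 91.9 CPM in stem cells of the KO label and to 12.8 to 3365 CPM in those of the WT label. Stem cells are the reference of the contrasts against stem. There S100a9 had a mean of 254 CPM over 7 libraries and stood at 1499 CPM in the highest library. In Flt3 cells the 5 genes summed to 8.78 to 80.0 and 15.1 to 6872 CPM, and in Dntt cells to 6.95 to 72.6 and 7.87 to 29.7 CPM. In the Mk cells of the 2 libraries they summed to 4.56 and 5.28 CPM. Of the T and NK genes (Cd3e, Cd3d, Trbc2, Nkg7, Klrb1c), Nkg7 made up nearly the whole sum. Its mean was 333 CPM in GM, 266 in Mk and 57.7 in stem cells, while Klrb1c stood at 1.29, 3.18 and 4.75 CPM and Cd3e, Cd3d and Trbc2 had means of at most 1.25 CPM in these states. Erythroid genes summed to 42.3 and 366 CPM in the Mk cells of the 2 libraries, with 5 of 5 detected in each, and to 3.54 to 404 CPM in stem cells. The part of such cells in the levels of the B4galt genes was not tested.

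The genes whose levels across states most resembled each member were taken from 12741 genes by Pearson correlation of log2 CPM over 30 sums of a library and state from 7 libraries, after each library's mean had been removed. The sums share libraries and depth, so these are descriptions only. B4galt6 was most like Mgst1 (r 0.92) and Gstm1 (r 0.91), which encode glutathione-handling enzymes, and Edem2 (r 0.90), of glycoprotein quality control. B4galt5 was most like Tpst1 (r 0.89), a tyrosine sulfotransferase of the Golgi, Dpysl2 (r 0.87) and Hlcs (r 0.85). B4galt4 was most like Met (r 0.87), Csrp2 (r 0.86) and Plpp2 (r 0.86), and B4galt7 most like Eif3c, Commd1 and Dohh (r 0.85 each). B4galt3 was most like Tmem161a (r 0.95), Mad2l1bp (r 0.95) and Rab1b (r 0.94), values that drop to 0.83, 0.84 and 0.80 without 1 sum in which B4galt3 had 0 UMIs (the 44 Flt3 cells of WT replicate 1). No gene followed B4galt1 as closely, the nearest being Lbr and Nploc4 (r 0.68 each) and Brcc3 (r 0.67). Between members, r ran from -0.51 (B4galt5 with B4galt7) to 0.46 (B4galt4 with B4galt6), and it was -0.34 between B4galt5 and B4galt6.

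Genes that act before, beside or after the family were counted in the same fits. In GM against stem cells, the genes of UDP-galactose supply went both ways: Galk1 (1.01), a galactokinase, was higher, and Galm (-0.85) and Galk2 (-0.22) were lower. Of 8 N-glycan branching and processing genes tested, 4 were higher, led by Mgat5 (1.14) and Mgat2 (0.66). The 2 lower ones were Fut8 (-0.63) and Man2a2 (-0.33). Among 9 genes that extend or cap LacNAc, 4 were higher and 4 lower, with B3gnt2 (0.76) and B3gnt8 (1.45), which lengthen the chain, higher, and St3gal6 (-2.67), a sialyltransferase, and Gcnt2 (-2.19), which branches the chain, lower. The lists' medians were 0.08, 0.10 and -0.08, beside -0.08 over all genes. Of 6 glycosphingolipid genes, B4galnt1 (1.93), which takes lactosylceramide toward complex gangliosides, was higher, and St3gal5 (-1.32), which makes the simplest ganglioside from it, and Ugcg (-0.34), which makes its precursor, were lower. Of 8 glycosaminoglycan genes, for the linker and the start of the chains on it, Csgalnact2 (1.26) and B3galt6 (0.51) were higher. Csgalnact1 (-3.01) and Extl3 (-1.05) were lower. All of these had edgeR adjusted p-values below 0.05, as did 66.0% of all genes in this contrast.

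In Dntt against stem cells, where 37.0% of all genes were called, the LacNAc list had 4 genes higher and 2 lower of 9, with St6gal1 (2.60), which caps LacNAc with sialic acid, and B3gnt2 (0.67) higher and Gcnt2 (-1.05) and St3gal4 (-0.26) lower. The N-glycan list had 3 higher, led by Mgat5 (1.04) and Mgat1 (1.13), and 1 lower, Fut8 (-1.37), of 8. The glycosaminoglycan list had 4 lower and 0 higher of 8, led by Csgalnact1 (-4.29) and Xylt1 (-0.80). Its median was -0.48 beside -0.00 over all genes. Of the glycosphingolipid genes, 3 of 6 were higher, B4galnt1 (0.83) and Psap (0.49) among them, and of the supply genes Galk1 (0.42) was higher and Galm (-1.30) lower. In Flt3 against stem cells, where 9.08% of all genes were called, Mgat5 (0.41) and Mgat1 (0.33) were higher and Fut8 (-0.62) and Csgalnact1 (-1.62) lower, with Fut7 (0.61), B3gnt2 (0.29), Psap (0.92) and B4galnt1 (0.59) also higher. Both contrasts share the stem cells, so these values are set side by side without a test between them.

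In Mk against stem cells 28.1% of all genes were called, 1763 higher and 1823 lower. Of the 5 lists, Galk1 (1.11) and Mgat5 (0.53) were higher, while Gcnt2 (-1.63), St3gal6 (-1.16), Mgat4a (-0.71), Mgat1 (-0.44), B3gnt5 (-0.98), Extl3 (-1.60) and Xylt1 (-0.76) were lower. The LacNAc list had a median of -0.85 over 9 genes, beside -0.09 over all genes. B4galt7, at 0.78, was thus higher in Mk cells while 2 genes of the glycosaminoglycan list, Extl3 and Xylt1, were lower. Between labels over all kept cells, where 1.11% of all genes were called, 2 genes of the 5 lists passed, St3gal6 (-1.05, adjusted p 0.0391 by edgeR) and St3gal5 (-1.47, adjusted p 0.0137). Both were lower under the KO label, and 0 passed within the stem, GM, Flt3 or Dntt gates. There St3gal6 was at -0.22 (stem) and -0.68 (Dntt), and St3gal5 at -1.38 (stem), -1.99 (GM) and -0.74 (Flt3). GM cells made up 9.93% to 22.6% of kept cells in KO libraries and 2.27% to 4.74% in WT libraries. The part of this mix of states in the values over all kept cells was not tested.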

How the data were processed

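The authors deposited raw UMI counts per gene and barcode for each of the 7 libraries, made with Cell Ranger 7.0.0 against mm10, with Seurat 4.4.0 also named, per the submitters' processing notes. Cells with at least 1000 UMIs, at least 500 genes and at most 10% mitochondrial UMIs were kept, and a Scrublet score (scanpy 1.11.5) was used only in an alternative, since it marked 0 to 5 cells per library. Counts were summed per library and state, leaving out sums of under 20 cells. They were tested with edgeR 4.0.16 in R 4.3.3 (TMM, filterByExpr, quasi-likelihood, two-sided, Benjamini-Hochberg over all genes tested). Labels were compared with the barcode list as a covariate, and states with the library as a block. DESeq2 1.42.0, other gates, cell filters, libraries left out and cells thinned to 3000 UMIs were alternatives. The scripts were tested on simulated counts. The members, gates and lists were chosen with earlier results of these data known.

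All 7 members are described. Each also has the 3 genes most like it over the sums, and up to 2 higher and 2 lower genes of each pathway list are named per contrast against stem cells and between labels, by smallest p. Promoter windows came from RefSeq (GRCm38.p6) and were taken for 6 members, with none on chromosome 18, where B4galt6 lies. Gene positions came from GENCODE vM21, which matched 32158 of 32285 gene IDs. Exact Poisson intervals (95%) cover counting error only.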

Additional observations from a re-analysis of the deposited data

Results flagged for a closer look

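In 31 sets of 4 WT libraries, 5 values stood apart from the other 3 by Dixon's criterion, which chance meets in about 1 in 20 sets. WT replicate 4, the WT library of barcode list B, gave 3 of them. Its B4galt5 over all kept cells was 12.4 CPM, where the others had 29.9 to 31.6. Its B4galt7 over all kept cells was 14.4 CPM against 7.35 to 8.53, and its B4galt4 in GM cells was 22.1 CPM against 12.7 to 13.1. KO replicate 3, the other library of list B, had 13.2 CPM of B4galt5 and 18.0 CPM of B4galt7 over all kept cells. WT replicate 2 gave the other 2 values, both in Dntt cells: B4galt6 at 16.8 CPM against 12.7 to 13, and B4galt7 at 4.19 CPM against 11.9 to 13.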

How the results depend on the processing

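No called difference of a member changed sign in its alternatives, and the number called between labels stayed at 0. The number called against stem cells moved. In Dntt cells (2) it was 4 with DESeq2, stricter or looser gates, priority assignment and thinned cells, where all-gene calls were 4643 of 12763, 6132 of 13033, 2897 of 11676, 6830 of 13202 and 3521 of 10664. In Flt3 cells (0) it was 1 without a gene filter (1555 of 23653 genes called) and with thinned cells (1919 of 10664). In Mk cells (2) it was 0 with looser gates (1877 of 11676), priority assignment (4686 of 13202) and thinned cells (1332 of 10664), 4 in list B alone (4806 of 12811) and 0 to 3 when 1 library was left out. In GM cells (4) it was 2 with priority assignment (8780 of 13202) and 1 with thinned cells (6238 of 10664). For the granule share (4) it was 2 at a 2% split (2961 of 11462) and in list A alone (3494 of 9992), and 2 to 5 when 1 library was left out, with 2 without KO replicate 1 or KO replicate 3. The causes were not tested.

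Values that missed the threshold changed sign as follows. Between labels, B4galt1 in Dntt cells (-0.05) was 0.22 in list A alone, 0.016 with stricter gates, 0.18 with looser gates, 0.11 with thinned cells and -0.37 to 0.22 with 1 library left out. Against stem cells, B4galt1 in Flt3 cells was -0.012 by priority, -0.061 in list B alone and -0.037 to 0.080 with 1 library left out, and in Mk cells -0.085 by priority. With thinned cells, B4galt3 in Mk cells was 0.47, B4galt5 in Mk cells 0.10 and B4galt4 in GM cells 0.027. B4galt4 in GM cells was also 0.14 in list A alone and -0.21 to 0.095 with 1 library left out. In list B alone, B4galt3 in GM cells was -0.034 and B4galt5 in Flt3 cells -0.077. B4galt5 in Dntt cells was -0.12 to 0.047 with 1 library left out, and B4galt7 in Flt3 cells -0.088 with looser gates.

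Over all genes the label comparison was the least stable: 162 calls became 0 without the list as covariate, 362 in list A alone and 856 with DESeq2. Mk minus stem (3586) called 718 without KO replicate 3 and 2265 without WT replicate 4. With the replicate block, B4galt1 between labels was -0.31 over all kept cells (edgeR adjusted p 0.438), 0 members were called and the calls over all genes fell to 1. Same-numbered libraries gave r 0.524, 0.714 and -0.349 over 14608 genes, values from which the barcode list was not taken out. KO replicate 3 also gave -0.647 and -0.689 with WT replicates 1 and 2, which like WT replicate 3 are of list A. The values therefore cannot decide whether the title numbers pair the libraries, and the main fits used no pairing. The deposited files carry a second numbering. Under it KO replicate 3 and WT replicate 4, both of list B, share a number (r 0.887, list difference included), as do KO replicate 1 and WT replicate 1. No block on that numbering was fitted.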
